A study of Gallus gallus with 30 samples.

Results

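ZP3 (ENSGALG00000001559, chromosome 10 in the study's gene list for GRCg6a) encodes zona pellucida glycoprotein 3, a protein of the avian egg coat. It is 1 gene of the 23910 in the deposited table, was chosen by this identifier because granulosa cells are known to make the protein, and is described here in all 30 libraries. The granulosa cell layer was taken from ovarian follicles of Luhua hens at 31 weeks of age, all untreated, at 10 stages with 3 libraries each. The stages are the prehierarchical follicles SWF (small white), LWF (large white), SYF (small yellow) and LYF (large yellow), the preovulatory follicles ranked F5 up to F1, of which F1 is the next to ovulate (F4, F3 and F2 lie between), and the postovulatory follicle (POF). Levels are FPKM, fragments scaled by transcript length and by the mapped fragments of the library, so genes of different length can be set side by side. For 6 libraries the sample title and the description exchange LWF and SYF. These stages are named by the description, which the data columns follow, with the title's name beside it where the order of stages matters.

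The egg of a bird is enclosed by the inner perivitelline layer, the counterpart of the mammalian zona pellucida, to which sperm bind. Its proteins share the zona pellucida domain, by which they assemble into filaments, and they come from different tissues. In chickens ZP3, also called ZPC, is secreted by the granulosa cells, whereas ZP1 is made in the liver and reaches the follicle by the blood. RefSeq (GRCg7b) places ZP3 on chromosome 10 between COMMD4 and a second gene named for its likeness to ZP3, ZP3L1. Whether reads were shared between ZP3 and ZP3L1 was not tested, and no identifier in the table is paired with ZP3L1.

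The stage mean of ZP3 was higher at each successive stage named by the columns through to F1, and far lower in POF. In SWF the libraries read 1495.2, 999 and 809 FPKM. The LWF (titled SYF) libraries read 2301, 3226 and 3490 FPKM, and the SYF (titled LWF) libraries 3307, 4944 and 7175 FPKM. No SWF library reached any library of these stages, while the highest LWF library lay above the lowest SYF library. In LYF the values were 7537, 10847 and 12636 FPKM, all above those of SYF. F5 gave 15512, 9385 and 13411 FPKM, which overlapped LYF. F4 gave 12824, 11522 and 25729 FPKM, and its replicate 3 stood apart from the others. From F3 onward single libraries lay far apart, at 17364, 52493 and 33161 FPKM in F3. F2 had 45602, 29862 and 90654 FPKM, the last being the highest ZP3 value of the 30 libraries. The F1 libraries were close together, at 61147, 67865 and 79014 FPKM. In POF they were not, at 341, 1182 and 9970 FPKM, so replicate 3 read 29.2 times replicate 1. The POF values spanned those of SWF, LWF and SYF, and replicate 3 also lay within the LYF and F5 ranges.

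**Figure D1:**
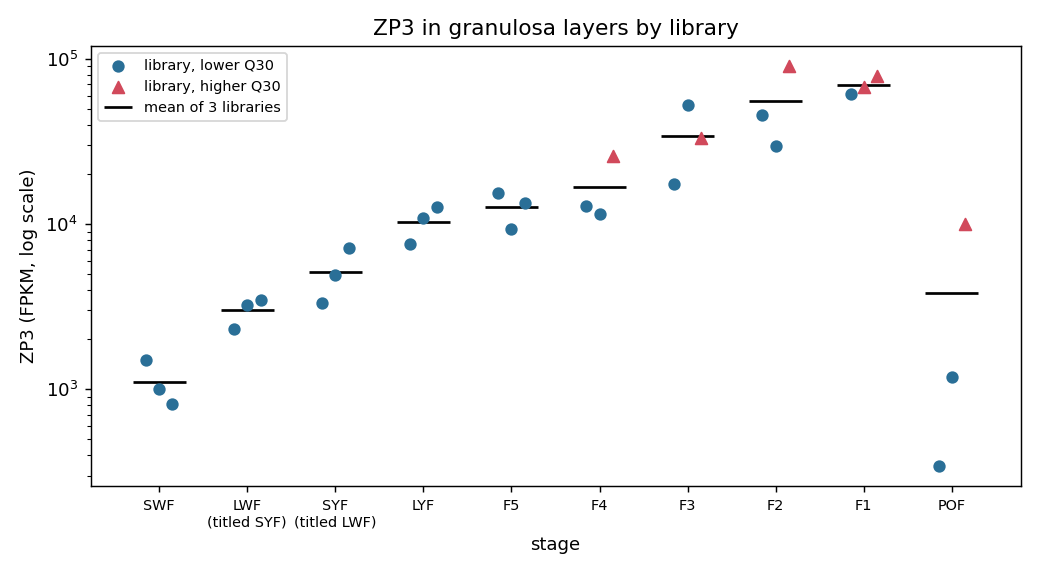
ZP3 level (FPKM, log axis) in each of the 30 libraries by stage, with lines for the mean of 3 libraries. Circles are libraries with the lower and triangles those with the higher sequencing quality (Q30). Stage means run from 1101 FPKM in SWF to 69342 FPKM in F1, and the POF libraries spread from 341 to 9970 FPKM.

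Ordered by stage mean, F1 came first at 69342 ± 9025 FPKM (SD, n = 3), followed by F2 at 55373 ± 31552 FPKM and F3 at 34339 ± 17594 FPKM. Next were F4 at 16692 ± 7854 FPKM, F5 at 12769 ± 3114 FPKM and LYF at 10340 ± 2587 FPKM. SYF (titled LWF) had 5142 ± 1941 FPKM, POF 3831 ± 5333 FPKM, LWF (titled SYF) 3005 ± 624 FPKM and SWF 1101 ± 354 FPKM. Neighbours in this order whose libraries overlapped were F1 and F2, F2 and F3, F3 and F4, F4 and F5, F5 and LYF, SYF and POF, and POF and LWF. Only LYF against SYF and LWF against SWF were neighbours without overlap. Over all 45 pairs of stages the ZP3 libraries did not overlap in 33, and over all pairs and genes kept 35.6% did not overlap. An exact permutation test of 3 libraries against 3 gave p = 0.1 for each of the 33, the smallest p this design allows. Fewer granulosa cells in a layer and less ZP3 RNA per cell cannot be told apart in bulk samples such as these.

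The largest contrast was between F1 and SWF, which were 63.0 times apart in mean FPKM. On log2(FPKM + 1) ZP3 was 6.02 higher in F1 than in SWF (standard error 0.41, adjusted p = 0.00011 from limma). A gene counts as called where its Benjamini-Hochberg adjusted p is under 0.05 and its fold of FPKM + 1 over 1.5. In this pair 52.9% of the 15197 genes tested were called, and 8.4% were called as higher in F1. The median log2 fold change of all genes was -0.60, and ZP3 had the rank 19 among log2 fold changes towards F1. Without any filter on low values the estimate was the same and the call was lost, with an adjusted p of 0.053 from limma.

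On the log2 scale this difference was spread over the steps between stages, with the least added from LYF to F5 and from F5 to F4. Between LYF and SWF ZP3 was 3.25 higher in LYF (standard error 0.51, adjusted p = 0.0082 from limma), which is 54.0% of the whole log2 gain. The means were 9.39 times apart, while 27.7% of genes were called and 3.76% as higher in LYF. This call was lost without SWF replicate 2 (adjusted p = 0.064) or 3 (0.051), with quantile normalization (0.055) and without the filter (0.078). Between F5 and LYF the difference was 0.31, or 5.09% of the gain (standard error 1.10, adjusted p = 0.996 from limma). Its 95% interval was -2.44 to 3.06, or -0.42 to 1.03 with the form of the test described next. With limma 0 of the 15197 genes tested (0%) were called in this pair, with 447, or 533 without the tie described next, at an unadjusted p under 0.05. Between F4 and F5 the difference was 0.32, or 5.33% of the gain, and between F1 and F5 it was 2.46, or 41.0%. These parts depend on the scaling. Scaling by the upper quartile of each library gave 0.17 for F5 against LYF and 2.84 for F1 against F5, of 6.74 for F1 against SWF. Quantile normalization gave 0.76 for F5 against LYF and 1.01 for F1 against F5, of 4.37 for F1 against SWF. That method sets a gene's value by its rank in the library. ZP3 ranked first of all genes in every F2 and F1 library, so its value could rise no further there. On the FPKM scale the weight was the other way round, since 82.9% of the rise in the mean fell between F5 and F1 and 13.5% between SWF and LYF. The steps from F4 to F3, F3 to F2 and F2 to F1 added 17647, 21034 and 13969 FPKM to the mean.

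The error given to ZP3 depends on how limma sets it. The test ties the expected spread of a gene to its expression level, and ZP3 was the most abundant gene tested over F1 and F5. In this pair the expected SD at the level of ZP3 was 4.31 on the log2 scale, whereas ZP3's own SD within stages was 0.29. The difference of 2.46 then had a standard error of 1.74 and an adjusted p of 0.34 from limma. Without the tie the standard error was 0.22, the 95% interval 1.90 to 3.03 and the adjusted p = 0.0031 from limma. With 1 fit over all 30 libraries the adjusted p was 0.042. The lowest F1 library had 61147 FPKM and the highest F5 library 15512 FPKM, so the stages did not overlap. In this pair 24.8% of genes were called with the tie, 5.39% as higher in F1.

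**Figure D2:**
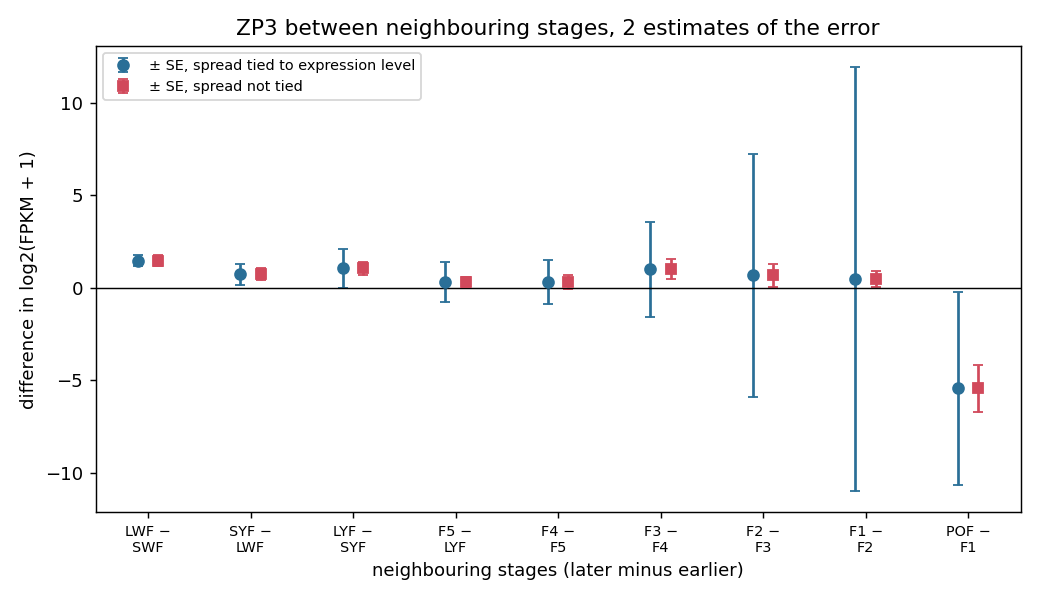
Difference of ZP3 in log2(FPKM + 1) between neighbouring stages (later minus earlier), with the standard error from limma when the spread is tied to the expression level (circles) and when it is not (squares). The estimates are the same in both and the errors differ most among the late stages, at 11.5 and 0.44 for F1 minus F2.

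The number of stage pairs in which ZP3 was called changed with this setting. It was 12 of 45 with the spread tied to expression, where 13.7% of all tests over pairs and genes made a call. These were LWF, LYF, F5, F4, F3, F2 and F1, each against SWF, and the 5 preovulatory stages, each against LWF (titled SYF). In these 12 pairs 7% to 52.9% of all genes were called. Without the tie ZP3 was called in 19 pairs, and with 1 fit over all libraries in 20. The share of all genes called also changed with the setting. For POF against F1 it was 15.7% with the tie, 17.2% without it and 44.6% with 1 fit. For F1 against F5 it was 24.8%, 25.2% and 24.5%. Of neighbouring stages, LWF (titled SYF) was 1.47 higher than SWF on the log2 scale (adjusted p = 0.044 from limma) and 7% of genes were called. Without the tie the adjusted p was 0.051. ZP3 was called in no neighbouring pair from LWF to F1, with or without the tie. Hardly any gene was called in these pairs, 0 to 4 of 15197 with the tie and 0 or 1 without it.

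Taken as classes with each stage weighing equally, the preovulatory stages lay above the prehierarchical ones. ZP3 was 3.04 higher on log2(FPKM + 1) in the 15 preovulatory than in the 12 prehierarchical libraries (standard error 0.30, 95% interval 2.42 to 3.66, adjusted p = 2.7e-08 from limma). Of all genes 33.8% were called in this contrast and 7.86% as higher in the preovulatory stages. ZP3 kept its call under each alternative tried, and the exchange of LWF and SYF does not touch this contrast. The libraries of the classes still overlapped, since F5 replicate 2 at 9385 FPKM and F4 replicate 2 at 11522 FPKM lay below LYF replicate 3 at 12636 FPKM.

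Within the hierarchy the level followed the order of the follicles. From F5 to F1 ZP3 gained 0.66 on the log2 scale per stage, a factor of 1.58 (limma standard error 0.29, adjusted p = 0.084, and standard error 0.098, adjusted p = 0.00026 without the tie). With quantile normalization the slope was 0.27 per stage (adjusted p = 0.34 from limma). That method gave ZP3 the same value in all F2 and F1 libraries, where it ranked first. A permutation test of the slope without that normalization over the 15 libraries, chosen after the values were seen, gave p = 5e-05 (two-sided, 100000 permutations). In limma 4.04% of genes were called for a slope of either sign and 1.24% for a rising one, with a fold over 1.5 per stage. Permutation tests among the prehierarchical stages were also chosen after the values were seen. The slope there was 1.05 per stage in the order of the column names (permutation p = 4e-05, n = 12). In the order of the titles it was 0.90 (permutation p = 0.0014, n = 12), and the stage means then read 1101, 5142, 3005 and 10340 FPKM, so the second and the third were not in rising order.

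Each library holds its own internal scale, since a share of the summed FPKM does not change when the library is scaled. In F1 ZP3 took 12.5% ± 1.51 of this sum (SD, n = 3 in each stage), with 2.52% ± 0.631 in F5 and 0.210% ± 0.0721 in SWF. In POF it took 0.744% ± 1.03 (SD, n = 3). With the 16 mitochondrially encoded genes of the study's gene list left out of the sum, the shares were 15.8% ± 2.06 in F1, 3.23% ± 0.737 in F5 and 0.286% ± 0.0936 in SWF. The F1 share thus exceeded the F5 share by 4.94 times in the whole sum and by 4.89 times without those genes. The exact two-sided permutation p was 0.1 for F1 against F5 and for F1 against SWF with either sum, the smallest possible with n = 3.

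**Figure D3:**
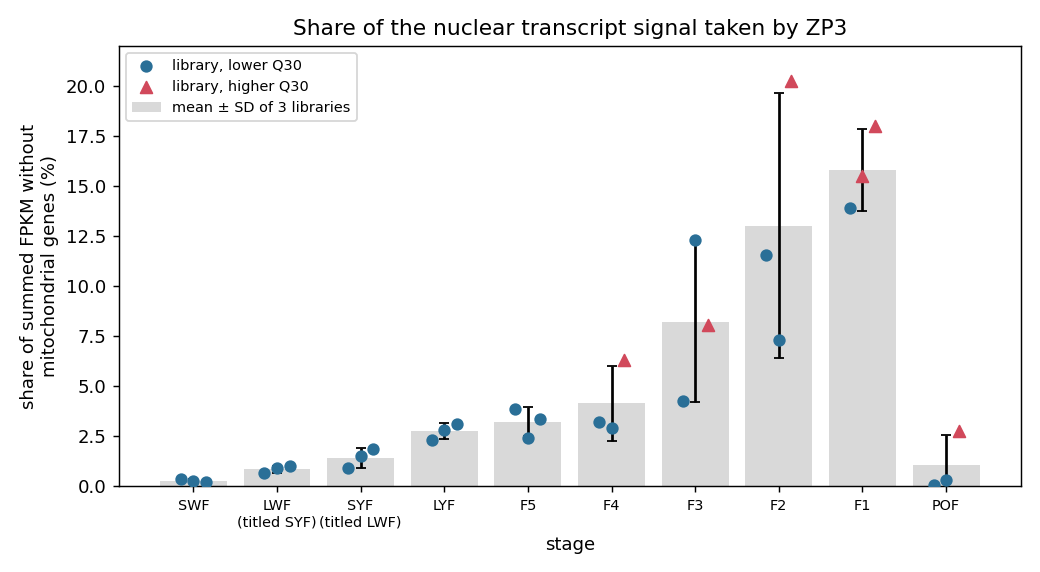
Share of the summed FPKM taken by ZP3 after the mitochondrially encoded genes were left out (percent), by stage. Grey bars and error bars are the mean and SD of 3 libraries, circles and triangles the libraries with lower and higher Q30. The mean share is 0.286% in SWF, 2.75% in LYF, 3.23% in F5 and 15.8% in F1.

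Leaving out the mitochondrial genes narrowed the spread of the share in LYF. In LYF replicate 1 these genes held 49.5% of the summed FPKM, against 23.8% and 23.1% in the other libraries. The share of ZP3 in the whole sum was 1.17%, 2.14% and 2.40% in the 3 libraries, and without the mitochondrial genes it was 2.32%, 2.81% and 3.12%. The coefficient of variation in LYF was 33.9% for the share over all genes and 14.6% for the share over nuclear genes. In F3 and F2 the spread stayed wide on either sum, at 51.6% and 53.3% over all genes and 48.8% and 50.7% over nuclear genes.

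By rank, ZP3 moved to the first place of the nuclear genes at the LYF stage. Among these genes it had ranks 7, 13 and 18 in the SWF libraries and rank 4 in each LWF library. In SYF it had ranks 4, 3 and 2 and in LYF ranks 3, 1 and 1. It was first in all 15 preovulatory libraries. Counting the mitochondrially encoded genes too, it was first in F4 replicate 3, F3 replicates 2 and 3 and all 6 libraries of F2 and F1. In POF it had ranks 147, 21 and 1 among nuclear genes. The next nuclear gene in every F3, F2 and F1 library was ENSGALG00000010237, which has no name in the sources used here. ZP3 stood 2.40, 2.79 and 3.18 times above it in F1 and 1.21, 2.45 and 2.03 times in F3.

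Divided by COX1, a mitochondrially encoded subunit of cytochrome oxidase, ZP3 read 3.00, 2.96 and 3.10 in F1, a coefficient of variation of 2.37%. In LWF, F4, F1 and POF the coefficient of this ratio was below that of FPKM. In SWF, SYF, LYF, F5, F3 and F2 it was above, at 55.7% against 25.0% in LYF. The ratio to COX1 was 0.952, 0.366 and 0.476 in F5 and 0.0846, 0.0407 and 0.0339 in SWF. Its mean was 56.9 times higher in F1 than in SWF, and by FPKM 63.0 times. The ratio to GAPDH, the glycolytic enzyme often used as a reference gene, was 88.2 ± 19.1 in F1 and 0.461 ± 0.219 in SWF (SD, n = 3 each). That is 191 times, and GAPDH itself was lower in F1 than in SWF (log2 fold change -1.64, adjusted p = 0.0012 from limma). Between F5 and LYF, where 0% of genes were called, the log2 fold change was 0.32 for GAPDH and 0.31 for ZP3. There the ratio averaged 17.1 ± 5.09 in F5 and 17.1 ± 4.12 in LYF (SD, n = 3 each).

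After ovulation the level was lower, and its size depended on the library. The POF libraries had 341, 1182 and 9970 FPKM, against 61147, 67865 and 79014 FPKM in F1, with no overlap. On the log2 scale the fold change of POF over F1 was -5.44. The adjusted p from limma was 0.46 with a standard error of 5.20 when the spread was tied to expression, and 0.046 with a standard error of 1.26 when it was not. In this pair 15.7% of genes were called and 3.88% as lower in POF, and ZP3 had the rank 8 among log2 fold changes in that direction. Against the mean of the 5 preovulatory stages, which has more libraries behind it, the log2 fold change of POF was -4.19 (95% interval -6.81 to -1.58, adjusted p = 0.012 from limma). In that contrast 38.2% of genes were called and 8.91% as lower in POF. Leaving out POF replicate 3 changed this difference to -5.52 and leaving out POF replicate 1 to -3.08, and the call was kept in both. Without the filter on low values the estimate was the same, but the call was lost. The standard error was then 4.33 in place of 1.22 (adjusted p = 0.52 from limma).

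The direction of POF against SWF was not settled. The means were 3831 FPKM in POF and 1101 FPKM in SWF, and limma put POF 0.58 higher on the log2 scale (adjusted p = 0.75, standard error 1.21). Without POF replicate 3 the fold change turned to -0.74 (adjusted p = 0.38). By share of the nuclear sum the POF libraries had 0.0843%, 0.303% and 2.77%, against 0.390%, 0.260% and 0.209% in SWF. Thus POF replicate 1 lay below every SWF library, replicate 2 among them and replicate 3 above them. In the whole comparison 16.4% of genes were called.

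Other genes did not all order the POF libraries as ZP3 did. CALR, the calcium-binding chaperone of the endoplasmic reticulum, had 465, 1275 and 665 FPKM in POF replicates 1, 2 and 3. PPIB, a prolyl isomerase of the same compartment, had 446, 824 and 654 FPKM. For both the highest library was replicate 2. COX1 had 14085, 22598 and 38649 FPKM, and GAPDH 952, 1215 and 2237 FPKM, in the same order as ZP3.

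The libraries differ in sequencing quality, which is set beside their ZP3 levels here. In the study's sequencing summary 6 libraries have a higher Q30, the share of bases called with high confidence, namely POF replicate 3, F1 replicates 2 and 3, F2 replicate 3, F3 replicate 3 and F4 replicate 3. The library with the higher Q30 read the most ZP3 of its stage in F4, F2 and POF, and in F1 both lay above replicate 1. In F3 it lay between the other libraries. Within these 5 stages ZP3 was 1.35 higher on the log2 scale in the libraries with the higher Q30 (standard error 1.47, adjusted p = 0.68 from limma, or 0.39 with a standard error of 0.52 without the tie). With limma 0 genes (0%) were called for this difference, but 1707 of the 15197 tested had an unadjusted p under 0.05, or 1760 without the tie. In the 24 libraries with the lower Q30 alone, ZP3 in F1 replicate 1 at 61147 FPKM still stood above all F5 and SWF libraries. There the slope from F5 to F1 was 0.59 per stage (permutation p = 0.0027, n = 10, a test chosen after the values were seen). Limma with the tie gave this slope a standard error of 0.38 and an adjusted p of 0.30. With a term for Q30 the log2 difference was 5.84 for F1 against SWF, beside 6.02 without it. For the preovulatory against the prehierarchical stages it was 2.81 beside 3.04, and for POF against SWF -0.74 beside 0.58. The slope from F5 to F1 was 0.58 beside 0.66 per stage. No SWF library has the higher Q30, so in both comparisons with SWF the term sets aside the libraries of F1 or POF that have it. There 5.84 rests on F1 replicate 1 alone, and -0.74 on POF replicates 1 and 2. Beyond these fits the part of sequencing quality in the differences between stages was not tested. For POF it cannot be told apart from the other differences of replicate 3.

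Among genes of at least 10 FPKM, the variation of ZP3 between libraries lay above the median gene at every stage but LYF and F1. Its coefficient of variation was 32.2% in SWF, where 87.1% of such genes had a lower one. In LWF, SYF and F5 it was 20.8%, 37.8% and 24.4%, above 76.5%, 79.6% and 65.6% of genes. At LYF it was 25.0% beside a median of 26.2%, and 47.0% of genes had a lower one. The late stages before F1 stood higher. In F4, F3 and F2 it was 47.1%, 51.2% and 57.0%, above 93.9%, 92.95% and 93.5% of genes. At F1 it was 13.0%, below the median of 17.8%, and 33.5% of genes had a lower one. The POF value of 139% exceeded that of 97.8% of genes, and the median gene had 36.3% there. With 3 libraries a stage these coefficients are themselves imprecise, and they are given as a description.

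The study lists a set of genes as abundant at every stage. Among the 35 of these genes reported here ZP3 had the widest range. Its highest stage mean was 63.0 times its lowest. Of the others reported, ATP6, a mitochondrially encoded subunit of ATP synthase, reached 7.41 times. The median over the other 34 genes was 2.71 times. The list was drawn up by the study from these same libraries, so the ranges describe it and were not tested.

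**Figure D4:**
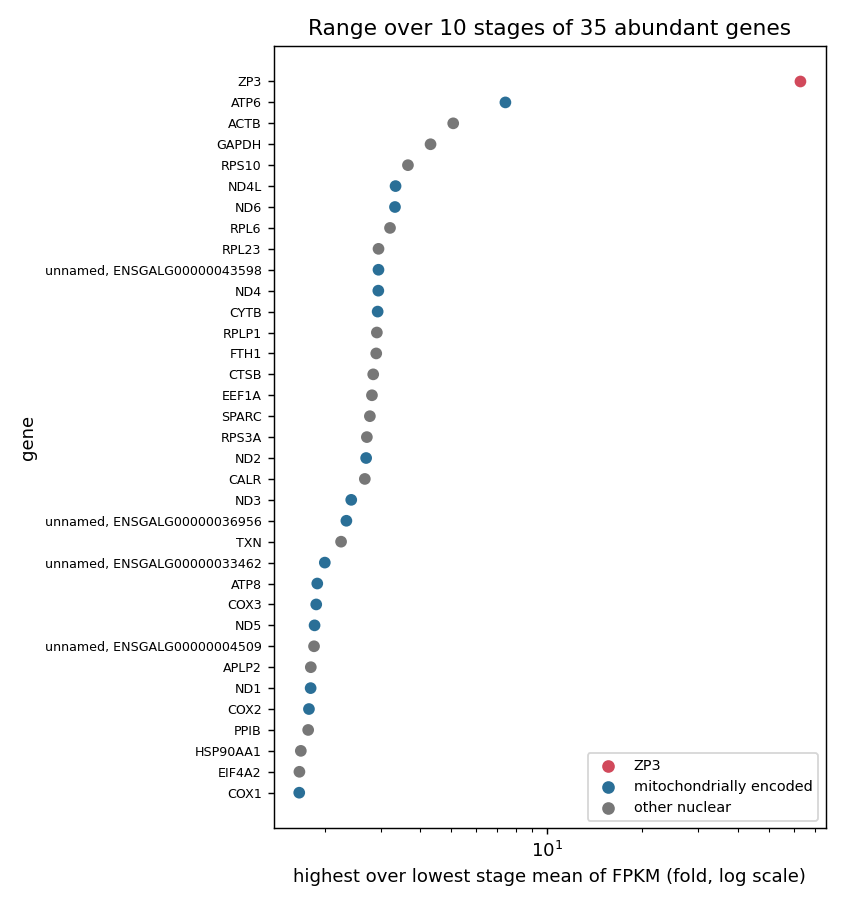
Highest over lowest stage mean of FPKM (fold, log axis) for 35 genes abundant at every stage, sorted by this range. ZP3 (red) reached 63.0-fold, ATP6 7.41-fold, and the median of the 34 other genes was 2.71-fold. Mitochondrially encoded genes are blue and other nuclear genes grey.

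Likeness to ZP3 was measured as the Pearson correlation of log2(FPKM + 1) over the 10 stage means, among 9010 other genes with a mean of at least 10 FPKM in their highest stage. These points share libraries and scale, so the values are a description. The median gene correlated at -0.54, and 147 genes (1.63%) exceeded 0.9. The closest were ENSGALG00000008306 (r = 0.99) and ENSGALG00000029583 (r = 0.99), both without a name in the sources used here. ENSGALG00000029583 averaged 6559 ± 1218 FPKM in F1, 1564 ± 223 FPKM in F5 and 96.1 ± 19.8 FPKM in SWF (SD, n = 3 each), and its POF libraries read 44.5, 134 and 747 FPKM. It thus put the POF libraries in the same order as ZP3, with replicate 3 far above the others. ENSGALG00000008306 averaged 852 ± 341 FPKM in F1, 187 ± 40.1 FPKM in F5 and 33.4 ± 13.3 FPKM in SWF (SD, n = 3 each). Its POF libraries read 24.5, 43.3 and 75.02 FPKM.

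Pooled over the stages, both genes also deviated with ZP3 between libraries of the same stage. Over the 30 deviations from the stage means, the correlation with ZP3 was 0.86 for ENSGALG00000029583 and 0.74 for ENSGALG00000008306, and the median over the 9010 genes was -0.023. Among the 20 genes most like ZP3 by stage means, 19 had a positive correlation of deviations, with a median of 0.74. The stage means and the deviations come from the same libraries, but the deviations were not used to rank the genes. ZP3 deviated most in POF, with a log2 SD of 2.46 against 0.19 to 0.81 at the other stages, so POF weighs heavily in these correlations. Both unnamed genes put the libraries in the order of ZP3 in SYF, LYF, F3 and POF, and in the reverse order in F1. In the remaining stages they did not both follow its order.

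The named genes were less like ZP3 than these. There were 31 others with a symbol, of which a gene among the most alike is not reported here. Among those reported, CALR was closest (r = 0.73, rank 569), followed by RPS10 (r = 0.59), TXN (r = 0.58) and RPLP1 (r = 0.55). With upper quartile scaling their correlations were higher, at 0.89 for CALR, 0.78 for TXN and 0.75 for both RPLP1 and RPS10. By Spearman's rho TXN (0.59) also came before RPS10 (0.49). CALR, which assists the folding of secreted glycoproteins, averaged 1632 ± 462 FPKM in F1 and 1031 ± 144 FPKM in SWF (SD, n = 3 each), a difference that limma did not call (adjusted p = 0.094). PPIB had a log2 fold change of -0.19 between F1 and SWF (adjusted p = 0.54 from limma). These are the 2 of 21 genes in a list for the secretory pathway that have an identifier, and neither was called in this pair, where 52.9% of all genes were. In POF against the preovulatory stages, where 38.2% of all genes were called, CALR was called as lower in POF like ZP3 (log2 fold change -1.14, adjusted p = 0.013 from limma), and PPIB was not (-0.17, adjusted p = 0.59). TXN, thioredoxin, and RPLP1 and RPS10, proteins of the ribosome, had their highest mean in F5 or F3. Pooled over the 30 libraries, their deviations within stages ran against those of ZP3, with correlations of -0.50 for TXN, -0.42 for RPLP1 and -0.34 for RPS10.

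**Figure D5:**
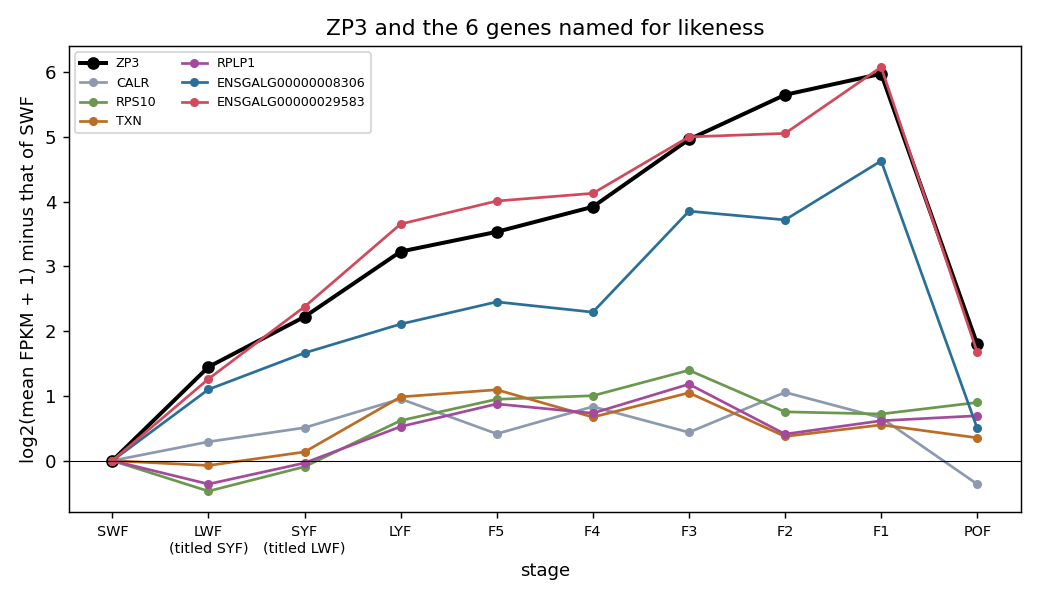
Mean level by stage relative to SWF, as log2(mean FPKM + 1), for ZP3 (black), the 2 unnamed genes most like it and 4 of the named genes most like it. ENSGALG00000029583 and ENSGALG00000008306 climb to F1 and drop in POF as ZP3 does, whereas the named genes stay nearer to their SWF level.

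The label of the samples could not be checked against the defining markers of granulosa cells, theca, endothelium, blood or oocytes. Of the 15 granulosa markers listed 0 is paired with an identifier, and the other marker lists have 0 as well. The other 5 egg coat genes listed, ZP1, ZP2, ZP4, ZPAX and ZPD, and the 6 hormone receptors have none either, so their levels are not analysed here. The summed FPKM without ZP3 and the mitochondrial genes was 359527 to 377885 in F1 libraries and 381702 to 386941 in SWF libraries, so the remaining nuclear genes together read lower in each F1 library.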

How the data were processed

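RNA from the granulosa layers was depleted of rRNA, made into strand-specific libraries and sequenced by the authors. They mapped the cleaned reads to GRCg6a with HISAT2 2.1.0, and quantified genes with StringTie 1.3.3. The values the authors deposited are FPKM, with a row for each gene and a column for each library. No further scaling is stated. The study gives clean reads per library, but fragments per gene were not analysed here, so no counting interval is given. The summed FPKM ran from 471009 to 642207 per library. The study calls the libraries of a stage biological replicates. Whether these came from separate hens is not stated, and p-values measure the spread between these libraries.

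A gene was tested if 2 or more libraries of any 1 stage exceeded 0.5 FPKM, which left 15197. Stages were compared on log2(FPKM + 1) with limma 3.58.1 in R 4.3.3, its spread tied to expression, over the 6 libraries of a pair, or with 1 mean per stage for classes and a slope for F5 to F1. P-values were adjusted over all of these. Fold changes on this scale understate changes of low genes. Simulated data with known fold changes were used to check the scripts. Permutation tests used scipy 1.17.1 and numpy 2.4.6, and figures matplotlib 3.10.9.

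The genes named are ZP3, genes of fixed lists that have an identifier, COX1 and GAPDH as within-library references, and the 5 named and 2 unnamed genes most like ZP3, of which 1 named gene is not reported here. ENSGALG00000010237 and ATP6 were added after their values were seen. Names come from the study's list of 36 genes. The gene and the lists were chosen with earlier results of these data known. Alternatives were other scalings, pseudocount 0.1, no filter, no tied spread, a term for Q30, a replicate block, 1 fit over all libraries and leaving out libraries. Using only libraries with the lower Q30 was chosen after seeing the data.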

Additional observations from a re-analysis of the deposited data

How the results depend on the processing

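The contrast of preovulatory with prehierarchical stages kept its direction and call under all 37 alternatives, and F5 against LYF stayed uncalled under all 15. Without the filter on low values calls were lost for F1 against SWF (6.02, adjusted p = 0.053 from limma), LYF against SWF (3.25, 0.078) and POF against the preovulatory stages (-4.19, 0.52), and 1 of 45 stage pairs was called. These estimates did not change. The SD expected at the level of ZP3 was larger, at 5.16 against 0.69 with the filter for F1 against SWF. Quantile normalization lost LYF against SWF (2.60, 0.055) and gave 4.37 for F1 against SWF, 0.76 for F5 against LYF, 1.01 for F1 against F5, 0.0034 for POF against SWF and 0.27 for the slope, with no other change of a call among these. It gave ZP3 the same value in every F2 and F1 library, where ZP3 ranked first. With the spread not tied to expression F1 against F5 (2.46), POF against F1 (-5.44) and the slope from F5 to F1 (0.66) gained a call, and 19 pairs were called. With 1 fit over all 30 libraries F1 against F5 (2.46, adjusted p = 0.042) and POF against F1 (-5.44, 3.1e-05) gained one, and 20 pairs were called. POF against SWF turned to -0.74 without POF replicate 3. That is the only library of this pair with the higher Q30. A term for Q30 and the lower Q30 libraries only therefore set it aside too and gave the same value. With the Q30 term 7 pairs were called of the 35 in which it could be fitted. Where the earlier stage has no library with the higher Q30, the term sets aside those of the later stage. This leaves F1 replicate 1 alone, and POF replicates 1 and 2. Among the called pairs was POF against F5 (adjusted p = 0.047 from limma, against 0.32 without the term), in which POF replicate 3 was thus set aside. F4 and F3 against LWF were no longer called. The term was not run for LYF against SWF and F5 against LYF, whose libraries all have the lower Q30. The share of ZP3 in F1 was 15.8% without mitochondrial genes. Beyond what these settings leave out, the cause was not tested.

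Leaving out 1 library at a time gave 5.82 to 6.26 for F1 against SWF, 3.05 to 3.49 for LYF against SWF, 0.094 to 0.51 for F5 against LYF and 2.26 to 2.62 for F1 against F5. It gave -6.76 to -4.33 for POF against F1, -0.74 to 1.69 for POF against SWF, -5.52 to -3.08 for POF against the preovulatory stages, 2.95 to 3.13 for the classes, 0.62 to 0.69 for the slope and 11.7% to 13.2% for the share in F1.

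Whether replicate numbers pair the libraries was not settled. In the stage pairs examined, deviations of same-numbered libraries correlated between -0.19 and 0.40, and differently numbered libraries were not examined beside them. All were positive in LYF against SWF, F5 against LYF and POF against SWF, and the signs were mixed in the other pairs. With a replicate block the number of called pairs was 8 in place of 12, and no other call on ZP3 changed (F1 against SWF, 6.02, adjusted p = 0.0017 from limma). The lost pairs were LWF against SWF and F5, F4 and F2 against LWF. There 1.61%, 5.5%, 12.4% and 25.5% of all genes were called, against 7%, 15%, 19.1% and 33% without the block. Of the 20 genes most like ZP3, 14 were kept by Spearman correlation and 16 by upper quartile scaling. FPKM carry no counts per gene, so counting error could not be set apart from the spread between libraries.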
